A study of Mus musculus with 5 samples.

Results

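The genes described here are 56 genes of the actin cytoskeleton, taken by symbol from the deposited gene table. They comprise the actins, 28 actin-binding genes, 9 genes for subunits of the Arp2/3 complex, alternative forms included, 9 genes of the WASP and WAVE group, the signalling genes Rac1, Rac2, Rhoa, Cdc42, Limk1 and Limk2, and the intermediate filament gene Vim. The actin-binding group is what remains outside the other groups, and it takes in the myosin light chain and focal adhesion genes, not each of which need bind actin directly. Of the 24419 rows, 55 carried one of these symbols. Diaph1 was listed under its older symbol Diap1 and is given apart from the other 55. All 55 passed the filter of a mean of at least 1 CPM (molecules counted at the gene, brought to the same library total in each sample), as did 10088 genes in all.

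The cells were bone marrow-derived macrophages (BMMs) of C57BL/6 mice, grown from marrow for 5 days with the growth factor M-CSF at 50 ng/ml. Every group received lipopolysaccharide (LPS), a bacterial cell wall component that activates macrophages, at 100 ng/ml, so no group shows resting cells. For 18 h the cells then had PBS (n = 2 samples) or Sema3G at 100 ng/ml (n = 3 samples), a secreted class 3 semaphorin. The recombinant protein was an Fc-tagged form made in transfected 293T cells, a human embryonic kidney line, and purified on protein G, whereas the control was buffer, so the semaphorin and its tag or preparation cannot be told apart. No source used here says whether the samples of a group came from separate cultures or animals, and the p-values measure only the spread between these samples. RNA was measured by 3′ end sequencing with molecular identifiers (UMIs), which counts molecules at the transcript end, so that transcript length does not enter the CPM. In bulk RNA, fewer cells of a type and less RNA per cell cannot be told apart.

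Actin monomers assemble into filaments that push the leading edge, close the phagocytic cup and carry adhesions in macrophages. The Arp2/3 complex starts a new filament as a branch on an old one, and it does so when switched on by nucleation-promoting factors: WASP and N-WASP downstream of Cdc42, and the WAVE proteins downstream of Rac within a complex of Cyfip, Nckap1, Abi and Brk1 subunits. Cofilin, coronins, capping proteins, filamins, plastins and adhesion proteins recycle, cap, bundle and anchor the filaments.

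The libraries held 1798469 to 2215855 UMIs, and 3 UMIs correspond to 1.35 to 1.67 CPM. The share of UMIs on listed genes was 77.6% and 75.6% with PBS and 71.3%, 67.1% and 65.9% with Sema3G. The ribosomal RNA precursor Rn45s took 1.006% and 3.19% of the UMIs with PBS and 6.31%, 7.40% and 7.88% with Sema3G, and the part of these shares in the results was not tested. Sema3G 2 and Sema3G 3 were the closest pair, at 1.77 chi-square per degree of freedom over 7918 genes against 6.57 to 29.6 for the other pairs. Summed macrophage markers (8 genes, none at 0 in all libraries) were 12570 and 9761 CPM with PBS and 8860, 9518 and 9295 CPM with Sema3G. The sum was lower in every Sema3G library, as were many members. Of the 8 genes, only Csf1r and Adgre1 were below PBS in every Sema3G library. Itgam was above PBS in each (703 and 593 CPM against 721, 726 and 788 CPM), as was Mertk at low values. Lyz2, Cd68, Cd14 and Fcgr1 had overlapping groups. The part of these markers in the members' values was not tested. Summed markers of lymphoid cells were at most 2.78 CPM, those of dendritic cells 0.556, those of mast cells 0.461, and all 5 erythroid markers were at 0. Neutrophil markers summed to 116 and 169 CPM with PBS and 103 to 133 CPM with Sema3G, mostly S100a8. Stromal and smooth muscle markers summed to 45.6 and 21.9 CPM with PBS and 18.1 to 30.4 CPM with Sema3G, and Tagln did not pass 1.61 CPM. On the log2(CPM + 1) scale the median change of all genes tested was -0.22, so the changes below are also given relative to that median.

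A single member of the 55 passed the test. Wasf2, which encodes WAVE2, rose with Sema3G, and no member fell (limma on log2(CPM + 1), Benjamini-Hochberg adjusted p under 0.05). Of all genes tested 1.8% were called, 1.59% higher and 0.218% lower. Wasf2 was also the single member called by the edgeR quasi-likelihood test (2.97% of all genes higher, 0.0297% lower), with TMM scaling (3.18% and 0.0297%) and by DESeq2 (2.76% and 0.012%). In log2 fold change, 44 of the 55 members were below 0, or 80%, beside 67.5% of all genes. With TMM scaling 35 were below 0, beside 53.4% of all genes, and with CPM recomputed on listed genes without Rn45s 30 were, beside 46.0%. Without Sema3G 1, Wasf2 was still called and 9 of the 55 members were called lower, beside 3.01% of all genes higher and 5.49% lower. These were Coro1a, Coro1b, Capg, Brk1, Vasp, Flna, Lcp1, Myl12a and Rac2. The median of the members was -0.32, against -0.22 over all genes. At an unadjusted p under 0.05, 14 members were lower and 2 higher, that is 25.5% and 3.64% of the members, beside 14.2% and 6.83% of all genes. In 23 members (41.8%) every Sema3G library was below both PBS libraries, beside 26.5% of all genes, and in 4 (7.27%) every one was above, beside 11.9%. The 3 Sema3G libraries had member medians of -0.16, -0.36 and -0.40 against the PBS mean, the smallest difference being in Sema3G 1.

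**Figure D1:**
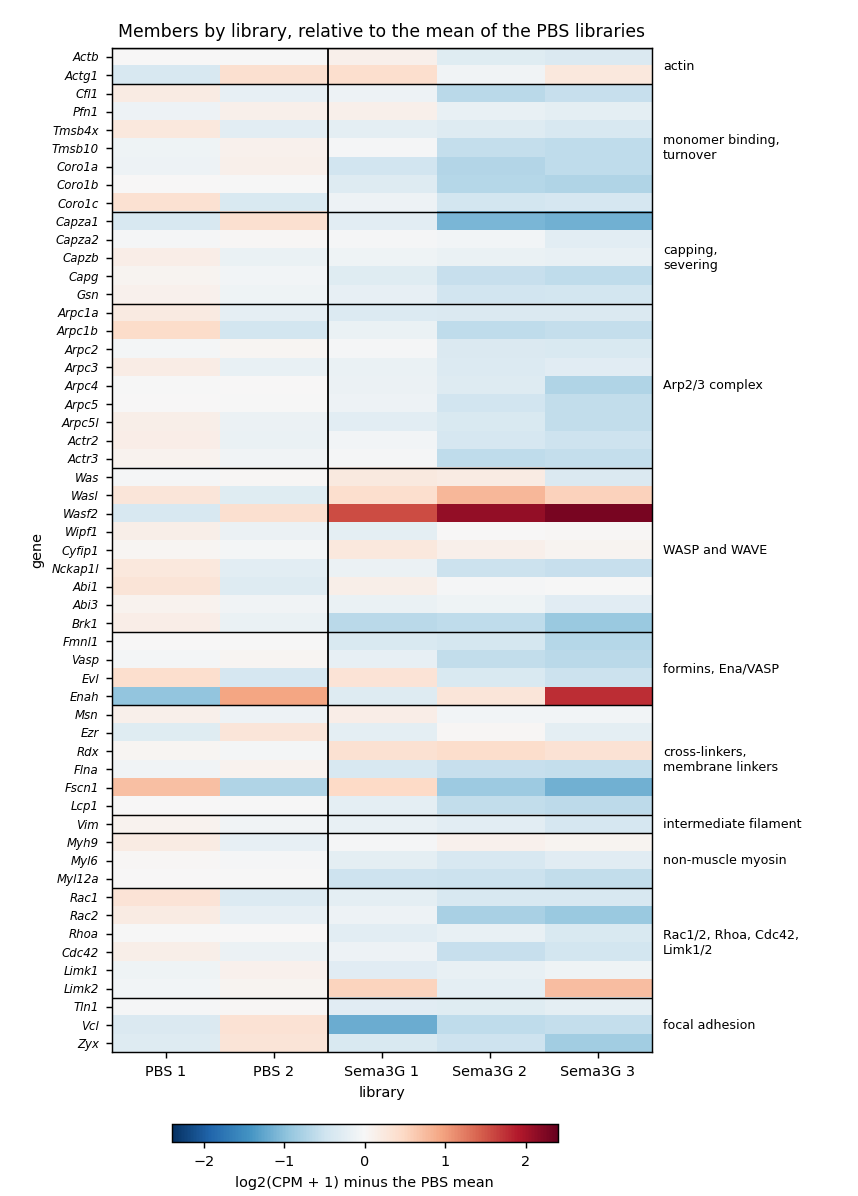
Each row is a member and each column a library, grouped by role; the colour is log2(CPM + 1) minus the mean of the 2 PBS libraries. Wasf2 is the darkest row in the 3 Sema3G libraries, and the Arp2/3 rows are mostly on the lower side in Sema3G 2 and Sema3G 3.

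Arp2/3 and actin-binding genes stood lower with Sema3G than the WASP and WAVE genes in median. The medians were -0.39 for the 9 Arp2/3 genes, -0.38 for the 28 actin-binding genes and 0.03 for the 9 WASP and WAVE genes. Relative to the median of all genes these are -0.17, -0.16 and 0.25. All 9 Arp2/3 genes and 19 of the 28 actin-binding genes were below the all-gene median, whereas 7 of the 9 WASP and WAVE genes were above it. With scaling by TMM, a method that sets most genes to no change, the 3 medians were -0.19, -0.18 and 0.23, and the median of all genes was -0.04. With CPM recomputed on listed genes, Rn45s left out, they were -0.10, -0.10 and 0.31, and the median of all genes was 0.04. The Arp2/3 and actin-binding medians thus stood below the all-gene median under these 3 scalings, and that of the WASP and WAVE genes above it. The spread over the 3 Sema3G libraries was 0.21 (SD) for the Arp2/3 median, 0.16 for the actin-binding median and 0.08 for the WASP and WAVE median. No test of the difference between the role groups was made, since the genes of a group are not replicates.

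**Figure D2:**
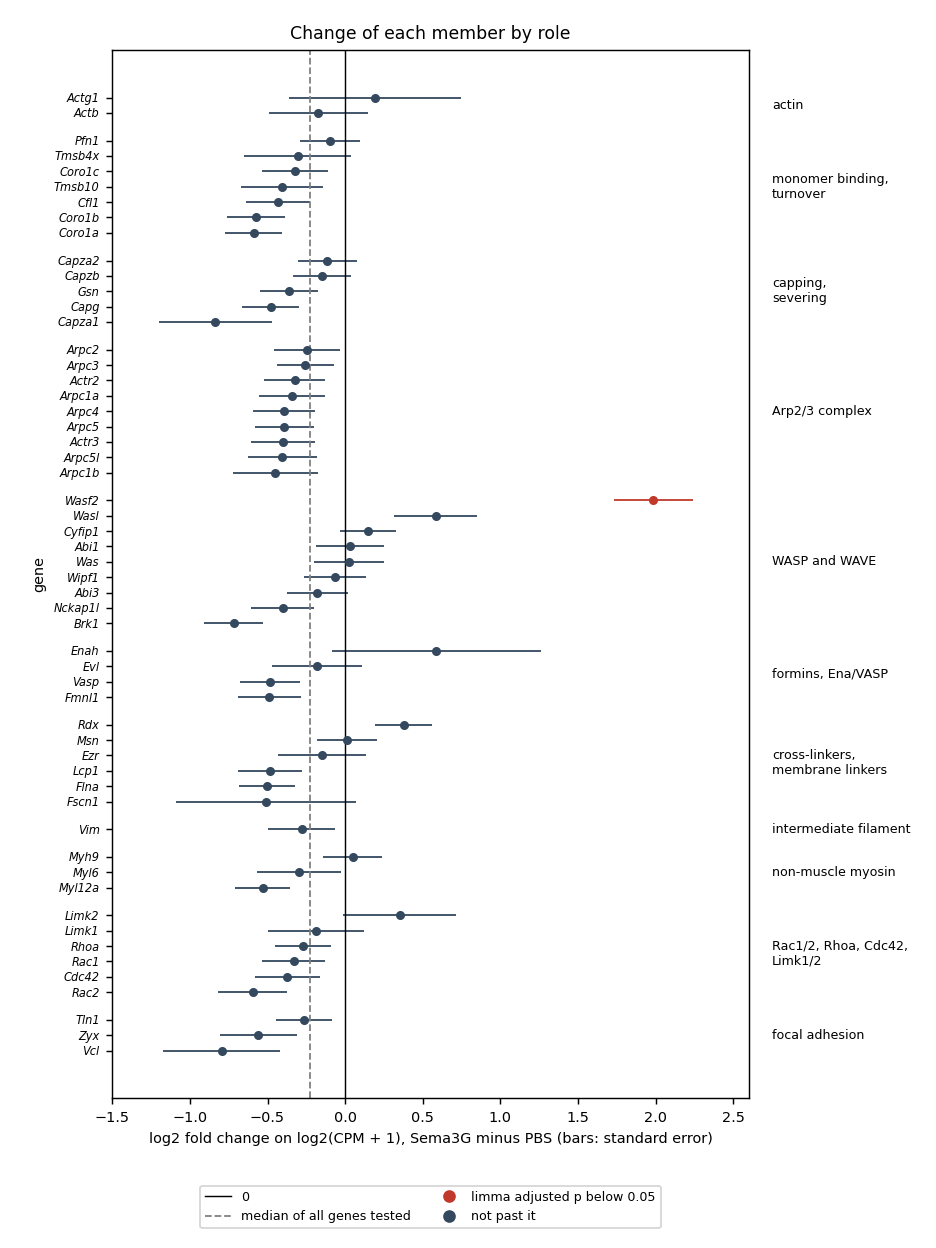
Log2 fold change (Sema3G minus PBS, log2(CPM + 1) scale) of each member with its standard error as a bar, by role; the dashed line is the all-gene median of -0.22. Wasf2 at 1.99 stands apart on the right, and all 9 Arp2/3 genes lie left of the dashed line; Actg1 had at most 3 UMIs in any library.

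Among the nucleation-promoting genes, Wasf2 was about 4 times as abundant with Sema3G, while none of the other 8 genes passed the test. Wasf2 (ENSMUSG00000028868.13) lies at chr4:133130505-133199756 on the plus strand of GRCm38, and the micro-RNA gene Mir7017 overlaps it on that strand. It encodes the WAVE protein that activates Arp2/3 in membrane ruffles and lamellipodia. Brk1 (ENSMUSG00000033940.8), at chr6:113604772-113616951 on the plus strand, encodes the smallest WAVE complex subunit, which holds the WAVE protein in the assembled complex. The 250 bases upstream of the RefSeq start of each gene (GRCm38.p6, plus strand, 5′ to 3′) are shown because these subunits of 1 complex stood at the opposite ends of the group. Capitals mark GC boxes, searched as GGGCGG on both strands, of which the Wasf2 stretch (chr4:133130383-133130632) holds 2 and the Brk1 stretch (chr6:113604522-113604771) 0. The Wasf2 stretch runs past the GENCODE start of the gene given above, whereas that of Brk1 ends just before its own. The 2 stretches are thus not alike in position.
Wasf2: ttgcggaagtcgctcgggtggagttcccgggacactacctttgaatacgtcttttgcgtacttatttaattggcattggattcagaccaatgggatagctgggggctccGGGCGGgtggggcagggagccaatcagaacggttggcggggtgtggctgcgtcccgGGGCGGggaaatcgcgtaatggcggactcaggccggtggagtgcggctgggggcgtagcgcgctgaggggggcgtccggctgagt
Brk1: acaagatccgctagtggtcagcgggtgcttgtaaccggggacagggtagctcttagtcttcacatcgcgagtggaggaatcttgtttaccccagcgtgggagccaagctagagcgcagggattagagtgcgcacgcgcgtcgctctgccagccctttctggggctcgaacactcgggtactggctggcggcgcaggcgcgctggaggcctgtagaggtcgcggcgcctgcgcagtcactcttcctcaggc

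Wasf2 had 36 and 65 UMIs in PBS 1 and PBS 2 and 143, 259 and 286 UMIs in Sema3G 1, 2 and 3. These are 19.8 and 34.8 CPM against 79.5, 117 and 132 CPM. Every Sema3G library was above both PBS libraries, and the lowest of them was more than 2 times the higher PBS value. The means were 27.3 ± 10.6 CPM (SD, n = 2) and 109 ± 27.0 CPM (SD, n = 3), a ratio of 4.01. The log2 fold change was 1.99 (SE 0.26, limma adjusted p = 0.000323), or 2.21 relative to the all-gene median. Among all 10088 genes Wasf2 had rank 10 by p, and among the 160 genes called higher rank 26 by fold change. On the recovered UMIs the edgeR quasi-likelihood test gave 2.21 with an adjusted p = 0.00161. The 2 PBS libraries differed by 1.76 times, and the order of the 5 libraries in Wasf2 was that of their Rn45s share, whose part in the result was not tested. Leaving out PBS 1 gave the smallest log2 fold change, 1.59, and leaving out PBS 2 the largest, 2.38, and Wasf2 stayed called in both.

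Brk1 had 197 and 158 CPM with PBS and 112, 115 and 94.96 CPM with Sema3G. All 3 Sema3G libraries were below the lower PBS value. The log2 fold change was -0.72 (SE 0.19, limma adjusted p = 0.0632), or -0.49 relative to all genes, and the test was not passed. It was passed without PBS 2, at -0.88 and a limma adjusted p = 0.0486, where 1.7% of all genes were called higher and 0.327% lower. It was also passed without Sema3G 1 (adjusted p in the same limma fit under 0.05). Brk1 did not pass with TMM scaling (-0.52, limma adjusted p = 0.124) or over the listed genes without Rn45s (-0.43, limma adjusted p = 0.211). Nor did it pass by edgeR (-0.51, adjusted p = 0.138), DESeq2 (-0.51, 0.249) or limma-voom (-0.52, 0.13). Without Sema3G 2 and without Sema3G 3 it did not pass either (limma adjusted p = 0.265 and 0.318). Without PBS 1 the log2 fold change was -0.56. Nckap1l, the hematopoietic scaffold subunit also called HEM1, also had a lower mean, with 331 and 232 CPM against 250, 195 and 189 CPM, and its groups overlapped.

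Wasl, which encodes N-WASP, had 21.98 and 14.5 CPM with PBS and 23.9, 31.6 and 26.7 CPM with Sema3G. The groups did not overlap, though PBS 1 lay close to Sema3G 1. It did not pass the test. Was, the hematopoietic WASP gene, had 50.0 and 51.4 CPM against 59.5, 58.2 and 39.6 CPM, on both sides of the PBS level. Wipf1, whose product WIP binds and stabilizes WASP, was at 70.3 ± 9.34 CPM with PBS (SD, n = 2) and 67.1 ± 6.6 CPM with Sema3G (SD, n = 3). Cyfip1, the subunit that receives the Rac signal, was at 162 and 154 CPM with PBS and 187, 173 and 165 CPM with Sema3G. Its Sema3G values were above both PBS values, without passing the test. Of the Abi adaptors, Abi1 was at 59.5 ± 17.6 and 59.6 ± 3.74 CPM and Abi3 at 69.5 ± 5.88 and 61.1 ± 3.72 CPM, PBS before Sema3G. The Abi1 groups overlapped, whereas every Sema3G library was below PBS for Abi3.

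**Figure D3:**
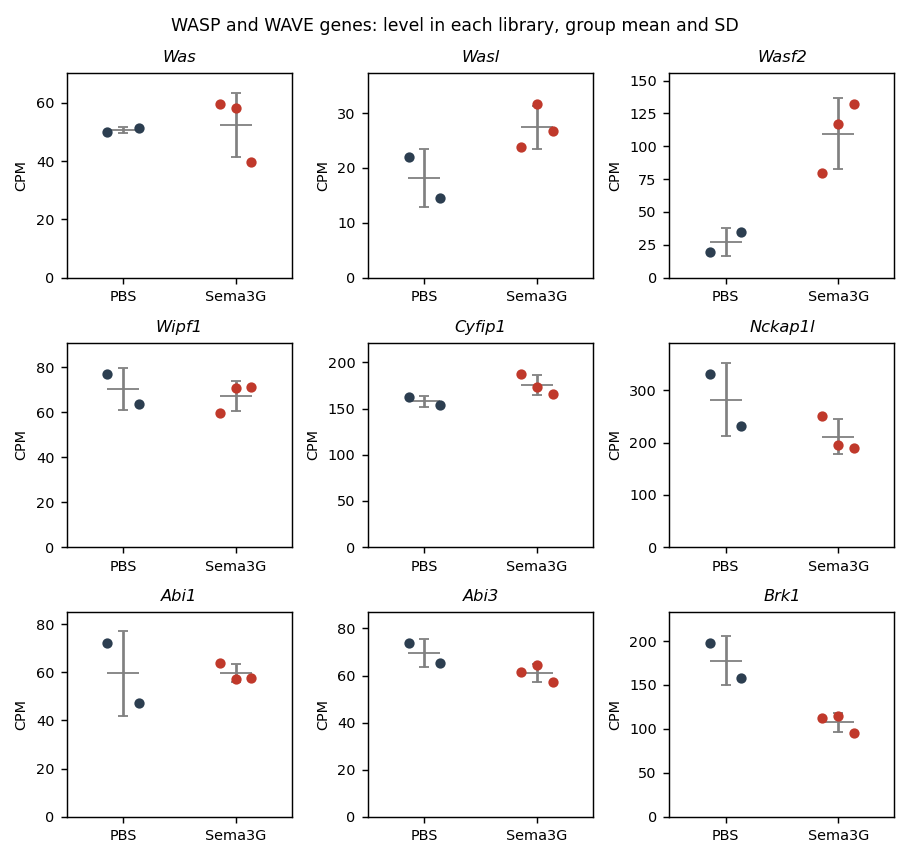
CPM of the 9 WASP and WAVE genes in each library, with PBS and Sema3G points apart and the group mean and SD beside them; each panel has its own axis from 0. Wasf2 is the gene whose groups lie farthest apart, at 19.8 and 34.8 CPM against 79.5 to 132 CPM, and Brk1 lies lower with Sema3G in all 3 libraries.

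The other WAVE paralogs were not detected. Wasf1 and Wasf3, which encode WAVE1 and WAVE3, had 0 UMIs in all 5 libraries, which allows at most 1.35 to 1.67 CPM each, for counting error only. Nckap1, the paralog of Nckap1l, had at most 3 UMIs in any library. Cyfip2, the Cyfip1 paralog, was measured at 24.4 CPM with PBS and 21.5 CPM with Sema3G, and Abi2 at 12.8 and 13.6 CPM.

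Wasf2 also stood higher with Sema3G when read against other genes of its own library, a measure to which scaling between libraries does not apply. Per 100 UMIs of Brk1, Wasf2 had 10.03 and 22.03 UMIs with PBS and 70.8, 102 and 139 UMIs with Sema3G. In means this is 16.0 ± 8.49 (SD, n = 2) against 104 ± 34.1 (SD, n = 3), and the groups did not overlap. Brk1 itself was lower with Sema3G, which widens this ratio. Per 100 UMIs of Cyfip1 the values were 12.2 and 22.6 against 42.4, 67.6 and 79.7, and per 100 UMIs of Abi1 27.5 and 73.9 against 124, 204 and 229. Per 100 UMIs of the Arp2/3 subunit Arpc2 they were 1.76 and 2.88 against 6.94, 12.8 and 14.7. The Wasf2 groups lay apart against each of the 6 genes so compared. Wasf2 was 1.97% and 4.24% of the WASP and WAVE UMIs with PBS and 8.85%, 13.3% and 15.8% with Sema3G.

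**Figure D4:**
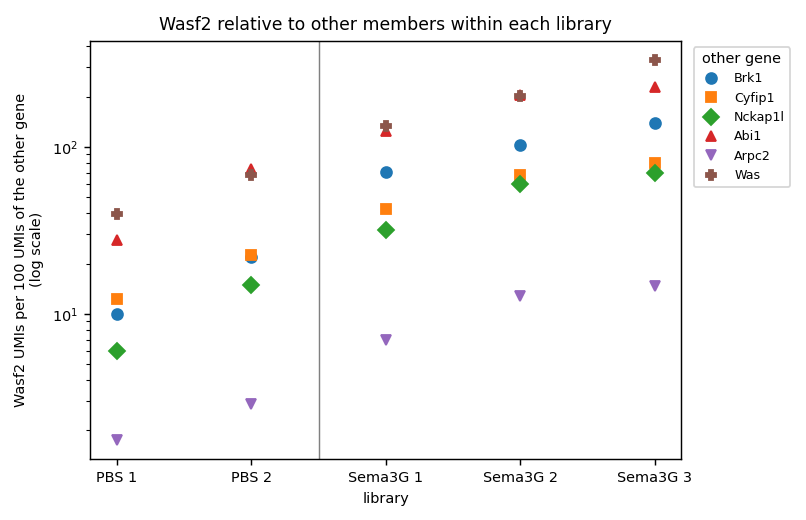
Wasf2 UMIs per 100 UMIs of 6 other members in the same library, on a log axis; points are libraries. Against each of the 6 genes the 3 Sema3G points lie above the 2 PBS points, from 10.03 and 22.03 to at least 70.8 for Brk1.

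For Arp2/3, which the WASP and WAVE proteins activate, all 9 subunit genes had lower means with Sema3G, beside 67.5% of all genes with a log2 fold change below 0, and none passed the test. On listed genes without Rn45s, Arpc2 and Arpc3 turned to just above 0. The log2 fold changes ran from -0.45 to -0.25, and 4 of them (44.4%) had every Sema3G library below PBS, beside 26.5% of all genes. These were Arpc1a, Arpc4, Arpc5 and Arpc5l. Arpc1b, the most abundant subunit and the form of ARPC1 that prevails in blood cells, had the largest fold. It had 2797 and 1508 CPM with PBS and 1842, 1344 and 1375 CPM with Sema3G, and Sema3G 1 lay between the PBS values, PBS 1 standing far above the other 4 libraries. The log2 fold change of Arpc1b was -0.45 (SE 0.27, limma adjusted p = 0.343), and it rested on PBS 1, being -0.0033 without PBS 1 and -0.89 without PBS 2. Arpc2, which forms the core of the complex with Arpc4, had the smallest, with 1121 and 1209 CPM against 1145, 915 and 898 CPM, or -0.25 (SE 0.21, limma adjusted p = 0.501). It was 0.04 when CPM was recomputed on listed genes without Rn45s.

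Arpc4 had 407 and 415 CPM with PBS and 374, 329 and 249 CPM with Sema3G. Arpc5, a peripheral subunit, had 323 and 314 CPM against 292, 231 and 211 CPM. The actin-related proteins themselves, Actr2 (ARP2) and Actr3 (ARP3), were at 201 ± 32.1 and 123 ± 9.92 CPM with PBS (SD, n = 2) and 161 ± 26.0 and 94.1 ± 22.04 CPM with Sema3G (SD, n = 3). In both, Sema3G 1 lay within the PBS range. Arpc3 was at 205 CPM with PBS and 171 CPM with Sema3G, also with overlap, and its log2 fold change turned to 0.03 on listed genes without Rn45s. The alternative subunits kept similar proportions: Arpc5l stood at 14.5 to 17.4 UMIs per 100 UMIs of Arpc5, and Arpc1a at 2.28 to 3.19 per 100 of Arpc1b, with overlapping groups in both.

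Summed over its subunits, Arp2/3 took 5349 and 4013 CPM with PBS and 4230, 3293 and 3201 CPM with Sema3G. The sums overlapped, Sema3G 1 being above PBS 2. The WASP and WAVE genes summed to 1005 and 821 CPM against 898, 882 and 833 CPM, all 3 Sema3G values lying between the PBS values. Per 100 Arp2/3 UMIs, WASP and WAVE UMIs were 18.8 and 20.5 with PBS and 21.2, 26.8 and 26.0 with Sema3G. Without Wasf2 these were 18.4 and 19.6 against 19.3, 23.2 and 21.9, and the groups overlapped.

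Among the actin-binding genes, 24 of 28 (85.7%) had a lower mean log2 level with Sema3G, beside 67.5% of all genes, and none passed the test. At an unadjusted p under 0.05, 12 (42.9%) were lower and 0 higher, beside 14.2% and 6.83% of all genes. In 14 (50%) every Sema3G library was below PBS, beside 26.5% of all genes. The proteins that handle actin monomers and recycle filaments comprise 7 genes, all with values below 0, from -0.59 to -0.10. Coro1a, the hematopoietic coronin that binds filaments and Arp2/3, had 214 and 256 CPM with PBS and 170, 144 and 153 CPM with Sema3G. The groups did not overlap, and the log2 fold change of -0.59 (SE 0.18, limma adjusted p = 0.103) was the largest of these genes. Coro1b was at 322 ± 3.61 CPM with PBS (SD, n = 2) and 217 ± 35.3 CPM with Sema3G (SD, n = 3), also without overlap. The last 300 bases of Coro1b are also found in the Ptprcap transcript, whose gene overlaps it on the same strand. The Coro1b UMIs are thus uncertain, though the Ptprcap row held at most 1.81 CPM.

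Cfl1, the filament-severing cofilin, had 451 and 345 CPM with PBS and 364, 253 and 270 CPM with Sema3G, with Sema3G 1 above PBS 2. Pfn1, the profilin that loads monomers onto growing ends, was at 110 ± 13.3 and 103 ± 14.3 CPM, a log2 fold change of -0.10 (SE 0.19, limma adjusted p = 0.800) that was 0.11 with TMM scaling and 0.19 over the listed genes. Tmsb4x, the monomer-sequestering thymosin β4, was the most abundant member. Its 10804 CPM in PBS 1 stood apart, whereas PBS 2 (7561 CPM) lay among the Sema3G libraries at 7705, 7339 and 6923 CPM. Tmsb10 and Coro1c had overlapping groups as well.

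Capping and severing genes had values from -0.84 to -0.12. Capza1, an α subunit of the barbed-end capping protein, had the lowest log2 fold change of the members with all 5 libraries. It rested on few UMIs, 23 and 41 with PBS and 25, 16 and 15 with Sema3G, and the groups overlapped (log2 fold change -0.84, SE 0.36, limma adjusted p = 0.201). The value was -0.46 without PBS 2 and -1.21 without PBS 1. The other α subunit gene, Capza2, was at 88.9 ± 2.97 CPM with PBS (SD, n = 2) and 82.1 ± 6.49 CPM with Sema3G (SD, n = 3). Its log2 fold change of -0.12 (SE 0.19, limma adjusted p = 0.745) was 0.08 with TMM scaling and 0.17 over the listed genes. Capzb, the β subunit, was at 372 and 333 CPM with overlap. Capg, the macrophage capping protein, had 321 and 293 CPM with PBS and 252, 209 and 201 CPM with Sema3G, and Gsn, the calcium-dependent severing protein gelsolin, had 305 and 263 CPM against 249, 205 and 210 CPM. In both every Sema3G library was below PBS.

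None of the genes that elongate unbranched filaments passed the test. Vasp, which extends filaments at the leading edge, had 409 and 433 CPM with PBS and 366, 279 and 267 CPM with Sema3G, and Fmnl1, a leukocyte formin, had 68.1 and 67.5 CPM against 52.3, 50.5 and 41.9 CPM. Neither had overlapping groups, and Fmnl1 had the largest fold on the lower side (log2 fold change -0.49, SE 0.21, limma adjusted p = 0.189). The formin gene listed as Diap1 (Diaph1), which acts downstream of RhoA, lay on the other side, with 142 and 150 CPM with PBS and 165, 199 and 199 CPM with Sema3G. All 3 Sema3G values were above PBS, and the log2 fold change of 0.35 (SE 0.18) did not pass the test (limma adjusted p = 0.274). Evl, a VASP paralog, had overlapping groups. Enah, which encodes the VASP relative Mena, had 0 and 5 UMIs with PBS against 1, 3 and 12, too few for a direction (log2 fold change 0.59, SE 0.67, limma adjusted p = 0.631).

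Of the cross-linkers, Flna, the filamin that joins filaments into networks, had 229 and 257 CPM with PBS and 186, 165 and 163 CPM with Sema3G. Lcp1, the leukocyte bundling protein L-plastin, was at 1031 and 1027 CPM against 880, 682 and 662 CPM. Both were lower in every Sema3G library without passing the test. Fscn1, the bundling protein fascin, had only 2 to 11 UMIs and overlapping groups (log2 fold change -0.51, SE 0.58, limma adjusted p = 0.626). The ERM proteins link filaments to the membrane. Rdx, the radixin gene, had 86.8 and 81.4 CPM with PBS and 109, 112 and 107 CPM with Sema3G, or 84.1 ± 3.84 (SD, n = 2) against 110 ± 2.54 (SD, n = 3). The groups were apart, and the log2 fold change of 0.38 (SE 0.18, limma adjusted p = 0.245), or 0.60 relative to all genes, did not pass the test. With CPM recomputed on listed genes without Rn45s, where 4.57% of all genes were called higher and 0.00951% lower, it was 0.67 and passed, with a limma adjusted p = 0.0312. Msn, the moesin gene, was at 539 ± 66.3 and 542 ± 50.9 CPM, and Ezr, the ezrin gene, at 20.3 ± 6.15 and 17.9 ± 2.12 CPM.

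Of the myosin II genes, Myl12a, a regulatory light chain, had 266 and 261 CPM with PBS and 187, 185 and 175 CPM with Sema3G. The groups were apart by more than their spread, with a log2 fold change of -0.53 (SE 0.18) that did not pass the test (limma adjusted p = 0.119). The heavy chain gene Myh9 was at 318 ± 61.8 CPM with PBS (SD, n = 2) and 326 ± 16.0 CPM with Sema3G (SD, n = 3), or 0.05 (SE 0.19, limma adjusted p = 0.908). The essential light chain gene Myl6 was at 20.3 and 16.4 CPM, from 31 to 38 UMIs a library, and was lower in all 3 Sema3G libraries.

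All 3 focal adhesion genes were lower in every Sema3G library, as were 26.5% of all genes, and none passed the test. Tln1, which encodes the integrin activator talin, had 399 and 410 CPM with PBS and 335, 332 and 343 CPM with Sema3G (log2 fold change -0.27, SE 0.18, limma adjusted p = 0.396), and the value was 0.03 over the listed genes. Zyx, the zyxin gene, had 37.4 and 58.4 CPM against 36.1, 32.9 and 25.8 CPM. Vcl, the vinculin gene, rested on 8 to 28 UMIs, with 8.79 and 14.99 CPM against 4.45, 7.22 and 7.38 CPM (log2 fold change -0.79, SE 0.38, limma adjusted p = 0.235), and the value was -0.44 without PBS 2 and -1.15 without PBS 1.

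Actin itself did not differ beyond its spread. Actb, the β-actin gene, had 6659 and 6632 CPM with PBS and 7193, 5456 and 5215 CPM with Sema3G. The Sema3G libraries lay on both sides of the PBS level (log2 fold change -0.17, SE 0.32, limma adjusted p = 0.779), and the value was 0.03 with TMM scaling. Actg1, the γ-actin gene, had 1 to 3 UMIs in every library, at or under the floor of 3 counts, and no fold is given. Its row may not hold all of its 3′ end molecules, since the sources used here do not name the gene models behind the counting, so it is not read as the level of γ-actin. Actb and Tmsb4x together made 51.0% to 53.2% of all member UMIs in the 5 libraries. Vim, the vimentin gene, had 1650 and 1484 CPM with PBS and 1384, 1310 and 1179 CPM with Sema3G, without overlap (log2 fold change -0.28, SE 0.22, limma adjusted p = 0.456), and was 0.01 over the listed genes.

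None of the signalling genes Rac1, Rac2, Rhoa and Cdc42 passed the test. Rac2, the hematopoietic Rac that signals to WAVE, had 321 and 244 CPM with PBS and 256, 163 and 151 CPM with Sema3G, with overlap through Sema3G 1 (log2 fold change -0.60, SE 0.22, limma adjusted p = 0.150). Rac1 had 340 and 216 CPM against 230, 208 and 208 CPM. Per 100 UMIs of Rac1, Rac2 had 94.7 and 113 UMIs with PBS and 112, 78.5 and 72.7 UMIs with Sema3G, again with overlap. Rhoa, which acts on formins and myosin, had 396 and 397 CPM against 332, 349 and 306 CPM, below PBS in every Sema3G library, and Cdc42, which acts on WASP, had 953 and 785 CPM against 798, 588 and 634 CPM, with overlap. The cofilin kinases were low, and neither passed the test. Limk1 had 22 and 26 UMIs with PBS against 19, 25 and 26, and Limk2 had 14 and 16 UMIs against 22, 15 and 31 (log2 fold change 0.35, SE 0.36, limma adjusted p = 0.587).

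The 3′ ends set a limit on some of these levels. Of the 50-base stretches in the last 300 bases of the longest coding transcript, 100% were shared with another gene for Coro1b, 77.7% for Tmsb10, 54.2% for Actr3, 20.7% for Was, 11.2% for Capza1, 8.37% for Actb, 7.17% for Enah and 0.398% for Myl6. The remaining members, Wasf2 and Brk1 included, shared none. Over the 55 members the log2 fold change had a Spearman correlation of 0.252 with transcript length and -0.17 with its GC content, beside 0.323 and -0.34 over the 9468 genes with a coding transcript and 0.385 and -0.58 over 119 further genes of the actin pathway. The Wasf2 transcript has 5642 bases at 54.4% GC and that of Brk1 1095 bases at 50.2%. These are correlations across genes, which are not independent replicates, and the part of length and base composition in the differences was not tested.

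**Figure D5:**
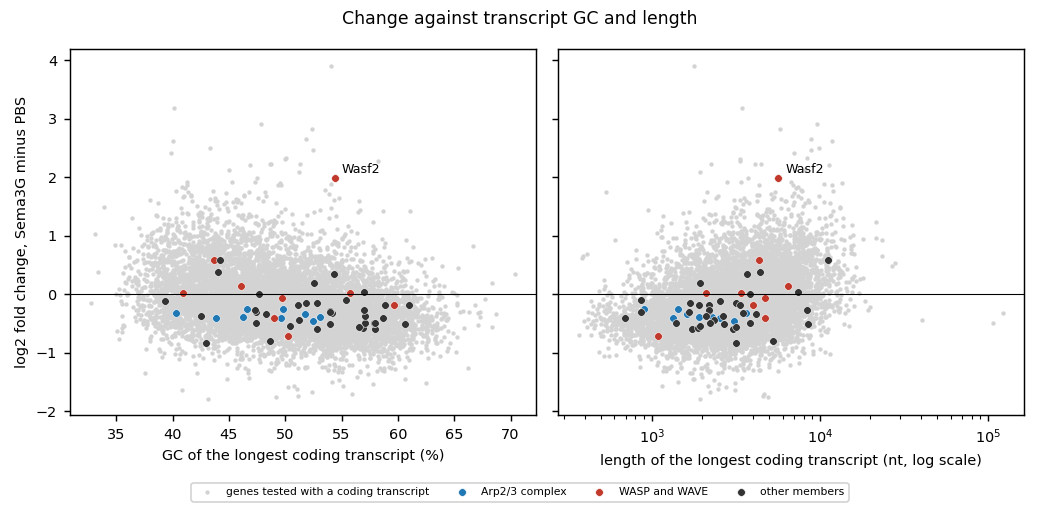
Log2 fold change against the GC content (percent, left) and the length (bases, log axis, right) of the longest coding transcript, with genes tested in grey, Arp2/3 in blue, WASP and WAVE in red and other members in black. The Spearman correlations over the grey genes are -0.34 and 0.323, and Wasf2 at 1.99 lies above the other members in both panels.

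In the RefSeq promoters, which reach 250 bases before and 50 bases after the start, 47 of the 55 members had an entry. A GC box (GGGCGG, either strand) was present in 37 of 47 (78.7%), beside 38.2% of all 27025 promoters. The 27025 were not limited to genes that passed the filter, as the members all did, so the shares here compare unlike sets of genes. The CArG box, the site of serum response factor, which regulates many cytoskeletal genes together with a cofactor that senses free actin, was matched in 4 of 47 (8.51%), beside 1.81% of all. The 4 were Actg1, Arpc4, Myl6 and Vcl, and stretches around 3 of these boxes are shown, on the strand of the gene, because the choice of the members did not use it. Capitals mark the box, which starts 90 bases before the start of Actg1 (promoter chr11:120348446-120348745, minus), 50 bases before that of Myl6 (chr10:128492960-128493259, minus) and 227 bases before that of Vcl (chr14:20929148-20929447, plus).
Actg1: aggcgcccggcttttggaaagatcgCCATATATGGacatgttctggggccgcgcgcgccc
Myl6: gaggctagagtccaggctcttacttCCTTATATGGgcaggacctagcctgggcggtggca
Vcl: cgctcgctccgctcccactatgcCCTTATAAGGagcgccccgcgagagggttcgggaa
These matches are letters in a window and not measured sites.

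All 149 further genes listed for the actin pathway had a row in the table, and 125 passed the filter and were tested. With Sema3G 3 rose and 2 fell, beside 1.59% and 0.218% of all genes. The median was -0.16, or 0.07 above that of all genes. Rock1, a kinase that activates myosin II, had 130 and 155 CPM with PBS and 212, 252 and 257 CPM with Sema3G (log2 fold change 0.75, SE 0.19, limma adjusted p = 0.0474). Myo5a, a myosin that carries vesicles along filaments, had 56.04 and 50.9 CPM against 105, 102 and 96.3 CPM (0.91, SE 0.19, limma adjusted p = 0.0203). Pstpip2, an F-BAR membrane protein of macrophages, had 1 and 8 UMIs against 15, 29 and 37 UMIs (2.22, SE 0.48, limma adjusted p = 0.0253). In these 3 genes every Sema3G library was above PBS. All 3 stayed called with TMM scaling, over the listed genes without Rn45s, by edgeR and by DESeq2. Each of the 3 calls was lost without Sema3G 2 and without Sema3G 3, with an adjusted p of 0.306 and 0.260 for Rock1 and 0.169 and 0.111 for Myo5a. Without PBS 1 the calls of Rock1 and Pstpip2 were lost, with an adjusted p of 0.190 and 0.151, and without PBS 2 that of Myo5a, with 0.0664. The log2 fold change of Pstpip2 was 1.34 without PBS 1 and 3.11 without PBS 2, and its call was also lost with limma-voom (adjusted p = 0.0709) and with no filter (0.0568). That of Rock1 was also lost with a pseudocount of 0.1 and with no filter.

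The 2 genes that fell were Arhgef1 and Myl12b. Arhgef1, an exchange factor that activates RhoA, had 85.2 and 80.3 CPM with PBS and 47.3, 47.8 and 41.5 CPM with Sema3G (log2 fold change -0.85, SE 0.20, limma adjusted p = 0.0384). Myl12b, the neighbouring paralog of Myl12a, had 180 and 192 CPM against 123, 108 and 93.1 CPM (-0.79, SE 0.19, limma adjusted p = 0.0419). In both the groups were apart. The call of Myl12b was lost with a pseudocount of 0.1 and with no filter. Both calls were lost with TMM scaling, over the listed genes without Rn45s, with limma-voom and by DESeq2. They were lost under edgeR too, at an adjusted p = 0.0699 for Arhgef1 and 0.0916 for Myl12b. Both were also lost on leaving out any library but Sema3G 1.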

How the data were processed

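RNA of 5 samples was sequenced at its 3′ ends (QuantSeq with UMIs, 75-base single-end reads), and the authors aligned reads to mm10 in Strand NGS, with edgeR 3.12 named in the submitters' processing notes. The authors deposited CPM per gene and sample. Columns of their own comparison (deposited p-values, q-values and ranks) were not used. Low values stepped in whole UMIs (100% of values whole within 0.01), so counts were recovered. The CPM denominator was larger than the sum over the listed genes.

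log2(CPM + 1) was fitted with limma 3.58.1 (trend; R 4.3.3) on 10088 genes (mean CPM not under 1) in all 5 samples, no covariate, two-sided, with Benjamini-Hochberg adjustment and a threshold of 0.05. A fold change on this scale understates that of low genes. Recovered counts also went to edgeR 4.0.16 and DESeq2 1.42.0, and the fits were tested on simulated data. The members and the lists were chosen with earlier results of these data known. Statistics are given for members past the threshold and for the largest rise and fall of each role. For the others values are given, or only ratios or whether the groups overlapped. Other genes of the pathway are named where past the threshold. The WAVE paralogs were named after their values were seen. Promoters are RefSeq (GRCm38.p6), loci GENCODE M21 (GRCm38).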

Additional observations from a re-analysis of the deposited data

How the results depend on the processing

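Wasf2 stayed called under every alternative run, at log2 fold changes of 1.59 to 2.38. Genes called in all numbered 182, against 324 (TMM), 482 (CPM recomputed on listed genes without Rn45s), 303 (edgeR), 573 (replicate block) and 108 (no filter), and leaving out 1 library gave 26 (Sema3G 2), 28 (Sema3G 3), 92 (PBS 1) and up to 856 (Sema3G 1). Members called higher were 2 over the listed genes (Wasf2 and Rdx). Members called lower were 0, but 3 with the replicate block (Brk1, adjusted p = 0.0129; Coro1a, 0.0208; and Coro1b) and 0 to 9 on leaving out a library, the 9 being without Sema3G 1 (Coro1a, Coro1b, Capg, Brk1, Vasp, Flna, Lcp1, Myl12a and Rac2). Samples with the same number deviated together weakly (0.173 and 0.111), with only 2 pairs, so the number is not taken as a pairing. Further pathway genes called higher were 3, against 8 (TMM, edgeR, DESeq2), 12 (listed genes), 5 (voom), 9 (replicate block), 1 (no filter) and 0 to 10 on leaving out a library; called lower were 2, against 1 (pseudocount 0.1, no filter), 0 (TMM, listed genes, edgeR, DESeq2, voom) and 0 to 11.

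The scalings moved the medians. That of the members, -0.32, was -0.12 (TMM, edgeR, voom), -0.11 (DESeq2) and -0.033 (listed genes); that of Arp2/3, -0.39, was -0.17 (DESeq2) and -0.10 (listed genes); that of WASP and WAVE, 0.03, was 0.23 (TMM, DESeq2, voom), 0.22 (edgeR), 0.31 (listed genes) and -0.20 to 0.069 on leaving out a library; that of the actin-binding genes, -0.38, was -0.18 (TMM, DESeq2), -0.19 (edgeR, voom) and -0.10 (listed genes). The share of WASP and WAVE among member UMIs was 0.52 percentage points higher with Sema3G, and 0.17 without Wasf2 (an alternative chosen after seeing the data).

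The fold change of 9 members turned above 0 with TMM, edgeR, DESeq2 and voom (Actb, Pfn1, Capza2, Capzb, Wipf1, Abi3, Evl, Ezr and Limk1) and of 14 over the listed genes (also Arpc2, Arpc3, Vim, Rhoa and Tln1). In the order TMM, listed genes, edgeR, DESeq2 and voom, the values were, among others, for Actb (0.031, 0.12, 0.037, 0.044, 0.033), Capza2 (0.085, 0.17, 0.086, 0.094, 0.091) and Pfn1 (0.11, 0.19, 0.10, 0.11, 0.11), and over the listed genes for Arpc2 (0.043), Tln1 (0.025) and Vim (0.010). On leaving out a library, Enah ran from -0.35 to 1.53, Fscn1 from -1.23 to 0.21, Myh9 from -0.15 to 0.25 and Pfn1 from -0.22 to 0.027, and Enah was -0.0027 with the replicate block. With 2 and 3 samples a group, and under 50 UMIs a library for Actg1, Capza1, Enah, Ezr, Fscn1, Limk1, Limk2, Myl6 and Vcl, small differences were not detectable at this depth.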
